A study of Mus musculus with 17 samples.

Results

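The genes described here are named for the proteins of the 2 ribosomes of a mouse cell: 55 cytosolic ribosomal protein genes and 77 mitochondrial ribosomal protein genes. They were chosen by symbol, as Rpl or Rps with a number and at most 1 closing letter a, x, l or y, and as Mrpl or Mrps with a number. Pseudogene symbols were left out, and a gene was kept where the array held a feature that was assigned to it alone. Where a gene had several such features, the feature with the highest mean over all arrays stood for it. The 132 members were among 19938 genes measured in this way.

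The measurements came from 17 Affymetrix Mouse Gene 1.0 ST arrays of 2 subsets of splenic myeloid-derived suppressor cells, sampled as a tumor grew. All mice were female BALB/c, and the cells were CD11b+ cells enriched on magnetic columns and then sorted by flow cytometry from pooled spleens. Monocytic cells (Mo, Ly-6C high and Ly-6G low) and polymorphonuclear cells (PMN, Ly-6C low and Ly-6G high) came from naive mice without tumor and from mice given 100000 Her-2/CT26 colon carcinoma cells under the skin, 3 or 6 weeks earlier. There were 3 Mo arrays at each stage, 4 arrays of naive PMN, 2 of PMN at 3 weeks and 2 of PMN at 6 weeks. Whether replicates stand for different pools of spleens is not given in the labels, so the p-values reflect only how much these arrays varied, which could be technical variation. The RNA is that of a sorted population, in which fewer cells of a type and less RNA per cell cannot be told apart.

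The cytosolic ribosome translates messenger RNA of nuclear genes, and its proteins are made in large amounts in cells that grow and divide. Many of their transcripts start with a run of pyrimidines, a 5′ terminal oligopyrimidine (TOP) motif, through which mTOR signalling controls their translation. The mitochondrial ribosome translates the few proteins that the mitochondrial genome encodes, all of them subunits of the respiratory chain and ATP synthase, while its own proteins are encoded in the nucleus and imported. Neutrophils are short-lived cells with few mitochondria, and their precursors stop dividing as they mature.

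Among the cytosolic members, 34 belong to the large (60S) and 21 to the small (40S) subunit, and 6 of them carry a symbol ending in l, the mark of a paralog: Rpl3l, Rpl10l, Rpl32l, Rpl39l, Rps4l and Rps27l. Of the mitochondrial members, 48 carry a large-subunit (Mrpl) and 29 a small-subunit (Mrps) symbol. Subunit counts follow the symbol throughout, so Mrps18a, a protein of the large subunit, and Mrps36, no longer counted as a ribosomal protein, stand among the 29. In 44 of them the number lies in the range used for bacterial ribosomal proteins (up to 36 in the large and up to 21 in the small subunit), and in 33 it lies beyond that range, where most proteins have no bacterial counterpart. Of the protein-coding genes of RefSeq that the naming rule covers, 16 cytosolic genes and 1 mitochondrial gene, Mrpl53, were measured only by features shared with other genes and are not described. The cytosolic family is the harder one to measure: 36 of its 55 members had several features, up to 14 for Rps12, against 8 of 77 mitochondrial members with 2 features each. Mouse cytosolic ribosomal protein genes have many processed pseudogene copies with near-identical sequence, and the part these play in the signal of a feature was not tested.

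The annotated promoters of the 2 families differ in their letters. RefSeq promoters of GRCm38.p6, from 250 bases before to 50 bases after the annotated start, were found for 112 of the 132 members, of which 39 were cytosolic members other than paralogs and 68 were mitochondrial. A C at the annotated start followed by 4 pyrimidines was present in 8 of the 39 cytosolic genes (20.5%), in 0.0% of the mitochondrial genes and in 3.01% of all 27025 genes with such a promoter. A run of at least 8 pyrimidines lying within 5 bases of the start was present in 33.3%, 10.3% and 11.4%, respectively. The stretches from 30 bases before to 20 bases after the annotated start are shown for 4 cytosolic members, with the pyrimidine run near the start in capitals. Rps10, Rpl28 and Rps6 have the C at the annotated start with 4 pyrimidines after it. In Rps9 the run spans the start, but the letter at the start is a T, so that rule is not met. Rps9, Rps10 and Rpl28 are among the members that moved with stage, while Rps6 is among those that did not pass the test.

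Rps9 (chr7:3704011-3704060, plus strand): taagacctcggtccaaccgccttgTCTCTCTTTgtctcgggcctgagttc
Rps10 (chr17:27635225-27635274, minus strand): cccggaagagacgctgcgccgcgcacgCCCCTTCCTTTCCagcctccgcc
Rpl28 (chr7:4792935-4792984, plus strand): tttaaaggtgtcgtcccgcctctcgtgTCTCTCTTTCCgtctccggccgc
Rps6 (chr4:86857348-86857397, minus strand): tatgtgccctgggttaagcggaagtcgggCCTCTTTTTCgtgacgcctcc

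The same stretches follow for 5 mitochondrial members that the results below turn on: Mrps18c and Mrpl45, with the largest rises in PMN, Mrpl42 and Mrpl23, with the largest in Mo, and Mrps10, which fell in both. Mrpl45 has a pyrimidine run that spans the start, without the C-led form at the start itself. Mrps18c and Mrpl23 had no run of 5 or more pyrimidines near the start, Mrpl42 had a short one after it, and that of Mrps10 lies ahead of it.

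Mrps18c (chr5:100798729-100798778, plus strand): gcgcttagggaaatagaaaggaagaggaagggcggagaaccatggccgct
Mrpl45 (chr11:97315686-97315735, plus strand): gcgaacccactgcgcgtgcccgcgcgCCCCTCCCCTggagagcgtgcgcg
Mrpl42 (chr10:95501930-95501979, minus strand): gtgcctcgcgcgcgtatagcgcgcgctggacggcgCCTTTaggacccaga
Mrpl23 (chr7:142533002-142533051, plus strand): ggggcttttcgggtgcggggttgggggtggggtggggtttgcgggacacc
Mrps10 (chr17:47369167-47369216, plus strand): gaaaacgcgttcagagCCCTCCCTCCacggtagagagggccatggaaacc

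The 7-letter core CCGGAAG, which ETS factors such as GABP bind, was searched on both strands, from 250 bases before to 50 bases after the start. A promoter held it in 35.9% of the cytosolic and 36.8% of the mitochondrial genes, against 9.93% of all genes with a promoter. The 8-letter sequence TCTCGCGA, searched in the same way, was present in 23.1% of the cytosolic, 1.47% of the mitochondrial and 1.13% of all genes with a promoter. AAGATGGC, a core of the YY1 site, was present in 5.13%, 17.6% and 3.19%, and GCATGCGC, a core of the NRF1 site, in 7.69%, 11.8% and 3.05%. The E-box CACGTG (12.8%, 7.35% and 8.09%) and TATAAA (10.3%, 7.35% and 15.7%) were searched as well. A match is a description of the letters and not of a bound site. The 100 bases before the start are shown for 5 members that hold such letters, with CCGGAAG and TCTCGCGA on either strand in capitals. TCTCGCGAGA holds TCTCGCGA once on each strand, and CTTCCGG is CCGGAAG on the opposite strand.

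Rps6 (chr4:86857368-86857467, minus strand): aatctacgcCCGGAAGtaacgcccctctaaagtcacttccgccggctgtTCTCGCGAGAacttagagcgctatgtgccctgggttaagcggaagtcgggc
Rps25 (chr9:44407614-44407713, plus strand): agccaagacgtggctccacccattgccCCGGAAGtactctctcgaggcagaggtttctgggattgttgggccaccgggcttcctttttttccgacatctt
Mrps26 (chr2:130563657-130563756, plus strand): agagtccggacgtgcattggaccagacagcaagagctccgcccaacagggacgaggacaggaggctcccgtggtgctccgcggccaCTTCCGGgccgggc
Mrpl51 (chr6:125192100-125192199, plus strand): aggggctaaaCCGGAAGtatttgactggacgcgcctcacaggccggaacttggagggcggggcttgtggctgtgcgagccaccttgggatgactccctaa
Mrpl43 (chr19:45006443-45006542, minus strand): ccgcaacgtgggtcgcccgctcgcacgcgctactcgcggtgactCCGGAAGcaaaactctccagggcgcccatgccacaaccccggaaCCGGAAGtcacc

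The deposited values are intensities that the authors made with RMA (background correction, normalization across arrays and summary of the probes of a feature). They are given here on the log2 scale, where a difference of 1 is a 2-fold change of intensity. Mo and PMN arrays appeared to have been normalized apart, so changes with stage were tested within a subset. Changes were estimated with limma over all 19938 genes, from 1 linear model that held the 6 group means. Errors of changes are standard errors (SE) of that fit, errors of levels are standard deviations (SD), and a gene passed where the Benjamini-Hochberg adjusted p over all genes was below 0.05. Comparisons of a subset with its naive cells share the naive arrays, so the values at 3 and at 6 weeks are set side by side and are not independent. Of the arrays, 2 stood apart in the families' medians. Replicate 1 of Mo at 3 weeks read 7.79 for the mitochondrial median, as high as naive replicate 3, while the other 3-week arrays read 8.13 and 8.17. Replicate 2 of naive PMN read 9.67 for the cytosolic median, against 9.18 to 9.38 on the other naive PMN arrays. Results that rest on them are given without them as well.

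In Mo at 6 weeks the mitochondrial ribosomal proteins rose almost as a whole. Of 77 members, 65 rose against the naive cells and 2 fell, with a median change of 0.56 and a range from -0.32 to 1.44. Over all genes 46.2% passed, 21.8% rising and 24.4% falling, and the median change was -0.09. In the cytosolic family 21 of 55 members rose and 3 fell, the median change was 0.31, and the range ran from -0.61 to 1.21. Members with an Mrpl symbol had 41 of 48 higher and 0 lower, with a median of 0.67, and those with an Mrps symbol had 24 of 29 higher and 2 lower, with a median of 0.49. Members numbered beyond the bacterial range had 31 of 33 higher, and those in the bacterial range 34 of 44 higher and 2 lower. In the cytosolic family the split was 13 higher and 3 lower of 34 in the large subunit, and 8 higher and 0 lower of 21 in the small subunit. Centring each array on its median moved the median of all genes by 0.19, and the calls then stood at 72 higher and 0 lower of 77 mitochondrial and 37 higher and 0 lower of 55 cytosolic members, with 29.1% of all genes higher and 6.92% lower. After quantile normalization over all 17 arrays together, which moved the median of all genes by 0.11, 55 mitochondrial members were higher and 0 lower, 7 cytosolic members were higher and 3 lower, and 17.5% of all genes were higher and 8.8% lower.

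**Figure D1:**
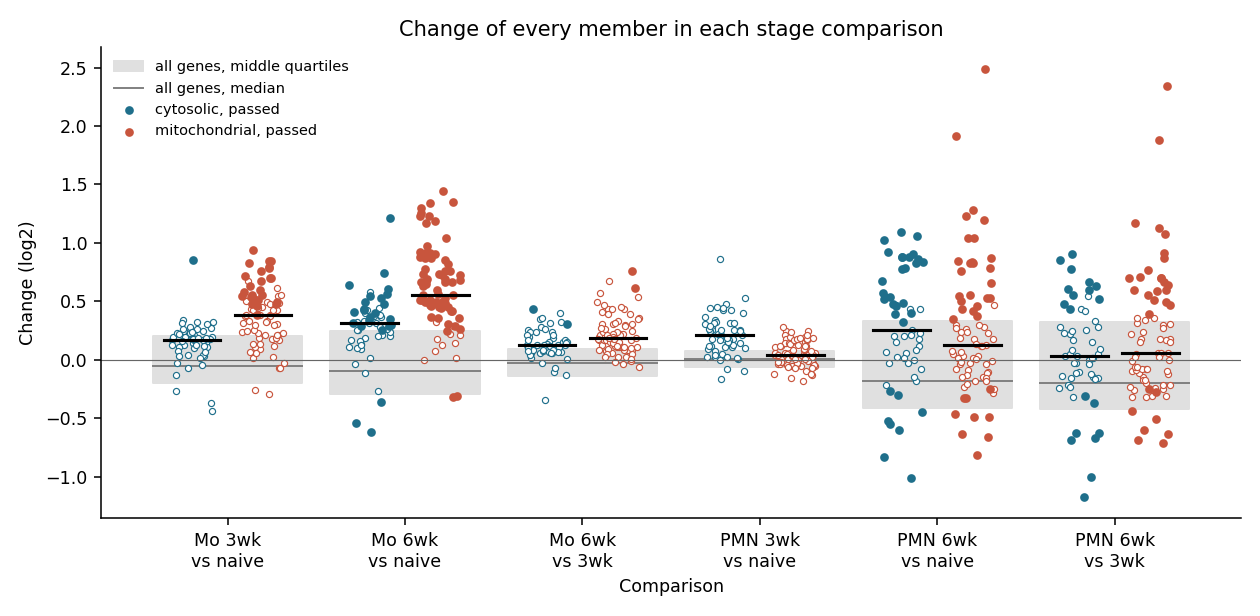
Change on the log2 scale (vertical axis) of every member in the 6 stage comparisons, cytosolic members in blue and mitochondrial members in orange, filled where limma's adjusted p was below 0.05 and open where it was not. Black lines are family medians, and the grey box and line are the middle quartiles and median of all 19938 genes. In Mo at 6 weeks the mitochondrial median stood at 0.56 and that of all genes at -0.09, and in PMN at 3 weeks no member is filled.

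Mrpl42, a large-subunit protein of the mitochondrial ribosome, had the largest rise in Mo at 6 weeks. Its level read 5.44, 5.56 and 5.68 on the naive Mo arrays, 6.22, 6.5 and 6.44 at 3 weeks, and 6.56, 7.06 and 7.39 at 6 weeks. The 3 stages did not overlap on any array, and the lowest 6-week array was only slightly above the highest 3-week array. The change from naive to 6 weeks was 1.44 ± 0.16 (SE), or 2.72-fold (adjusted p = 6.76e-06).

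Mrpl23, which in bacteria lies at the exit of the nascent chain, read 7.93, 7.90 and 8.25 in naive Mo and 8.93, 9.56 and 9.65 at 6 weeks. All 6-week arrays were above all naive arrays, with a change of 1.35 ± 0.23 (2.55-fold, adjusted p = 0.000441). Its levels at 3 weeks, 8.0, 8.87 and 9.24, spanned most of that distance, and replicate 1 lay among the naive arrays. Mrps18c, one of 3 mammalian paralogs of bacterial protein S18, read 8.44, 8.29 and 8.68 in naive Mo and 9.67, 9.77 and 10.01 at 6 weeks. It was higher on every 6-week array, by 1.34 ± 0.20 (2.54-fold, adjusted p = 0.000124). Mrps26, a small-subunit protein without a bacterial counterpart, read 8.30, 8.24 and 8.73 and then 9.38, 9.79 and 9.99, again without overlap, a change of 1.30 ± 0.19 (2.46-fold, adjusted p = 0.000109).

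The next largest rises of the mitochondrial family in Mo were those of Mrpl51 (1.26), Mrpl20 and Mrpl16 (both 1.23), Mrpl18 (1.18), Mrpl45 (1.17) and Mrpl13 (1.04), all of the large subunit. The other feature of Mrpl51 changed less in Mo, by 0.61. Mrpl45 anchors the ribosome to the inner membrane, where its products are inserted. Mrps10 and Mrps6, both counterparts of bacterial small-subunit proteins, were the 2 members that fell. Mrps10 read 6.91, 7.28 and 7.15 in naive Mo and 6.91, 6.71 and 6.77 at 6 weeks, so the groups met at 6.91 (change -0.32 ± 0.11, adjusted p = 0.0337). Mrps6 read 7.78, 7.72 and 7.46 and then 7.43, 7.20 and 7.38, without overlap by a narrow margin (change -0.31 ± 0.12, adjusted p = 0.0462). Neither fall passed after median centring (-0.13 for each) or after joint quantile normalization (-0.15 and -0.27). Without Mo 6-week replicate 2, the changes were -0.27 for Mrps10 and -0.24 for Mrps6, and neither passed; leaving out naive replicate 2 or 6-week replicate 3 also ended both calls, naive replicate 3 that of Mrps10, and naive replicate 1 or any PMN array other than naive replicate 4 that of Mrps6.

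Among the cytosolic members Rps27l rose most in Mo. It is a paralog of Rps27 and a known target of p53. It read 6.63, 6.72 and 7.11 in naive Mo, 7.22, 7.70 and 8.08 at 3 weeks, and 7.67, 8.14 and 8.27 at 6 weeks. Every array of tumor-bearing mice was above every naive array, and the change at 6 weeks was 1.21 ± 0.19 (2.31-fold, adjusted p = 0.000196). Rpl36a, of the large subunit, read 10.43, 10.35 and 10.51 and then 10.93, 11.28 and 11.30, with no overlap (0.74 ± 0.15, adjusted p = 0.00156). Rps21 (0.64 ± 0.16, adjusted p = 0.0065) and Rps12 (0.61 ± 0.11, adjusted p = 0.000575), both of the small subunit, were higher on all 6-week arrays as well.

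The 3 cytosolic members that fell in Mo were Rpl29, Rpl39l and Rpl12. Rpl29, a large-subunit protein also known for binding heparin, read 11.11, 11.40 and 10.84 in naive Mo and 10.83, 10.35 and 10.33 at 6 weeks (-0.61 ± 0.20, adjusted p = 0.0214). The highest 6-week array was 0.01 below the lowest naive array. Rpl39l, a testis-enriched paralog of Rpl39 that read below 6.2 on every array, changed by -0.54 ± 0.17 (adjusted p = 0.0161) with overlapping groups. Rpl12, at the base of the stalk that binds elongation factors, changed by -0.36 ± 0.14 (adjusted p = 0.0388), and its groups overlapped. None of the 3 passed after median centring (-0.43, -0.36 and -0.18) or without 6-week replicate 2 (-0.54, -0.51 and -0.36). The call of Rpl29 also ended without naive replicate 1 or 2 or 6-week replicate 3, that of Rpl39l without naive replicate 1 or 6-week replicate 3, and that of Rpl12 without naive replicate 2 or 3 or 6-week replicate 1.

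Leaving out 1 library changed the cytosolic count in Mo at 6 weeks by more than 1.5 times for 4 arrays: dropping naive replicate 1 left 10 members, dropping naive replicate 2 left 12, and dropping 6-week replicate 2 or 3 left 10. The mitochondrial count stayed between 45 and 70 of 77 over all 17 libraries left out in turn.

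At 3 weeks, of the mitochondrial members in Mo, 25 of 77 rose and 0 fell against naive, with a median change of 0.38, where 6.03% of all genes passed (5.2% rose and 0.833% fell) and the median was -0.05. In the cytosolic family 1 of 55 rose, Rps27l (0.85 ± 0.19, 1.8-fold, adjusted p = 0.0263), and 0 fell, with a median of 0.17. The mitochondrial members with the largest rises were Mrps18c (0.94 ± 0.20, adjusted p = 0.0237) and Mrps21 (0.85 ± 0.15, adjusted p = 0.0138), a small-subunit protein whose levels went from 8.73, 8.75 and 8.78 to 9.19, 9.76 and 9.86. Mrps18c read 8.82, 9.57 and 9.84 at 3 weeks. In both genes every 3-week array was above the naive arrays, and replicate 1 was the lowest of the 3-week arrays.

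The 3-week counts depended on the fit and on single arrays. With Mo fitted alone 0 members of either family passed, with a floor on low values 2 mitochondrial and 0 cytosolic members did, after joint quantile normalization 10 and 1, and with array weights 69 and 44. Without Mo 3-week replicate 1, 54 mitochondrial members rose and 2 fell, and 10 cytosolic members rose and 3 fell. Without naive replicate 1 or 2, or without 3-week replicate 2 or 3, 0 members of either family passed, and 16 to 18 of all 19938 genes did. Leaving out Mo 6-week replicate 2, or any PMN array other than naive replicate 2, gave 11 to 14 mitochondrial members.

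The means of the stages stood in rising order, naive below 3 weeks below 6 weeks, in 70 of 77 mitochondrial members (90.9%) and 47 of 55 cytosolic members (85.5%) in Mo, against 24.9% of all genes. This order has no test. Between 3 and 6 weeks 2 members of each family passed in Mo, where 7.51% of all genes passed (4.38% rose and 3.13% fell), and both family medians lay above 0 (0.12 cytosolic and 0.18 mitochondrial). Mrpl51, a large-subunit protein, went from 8.67, 9.15 and 9.27 to 9.62, 9.63 and 10.09 (0.76 ± 0.17, adjusted p = 0.00972), and Mrpl42 rose by 0.62 ± 0.16 (adjusted p = 0.0213). In the cytosolic family Rps12 rose by 0.43 ± 0.11 (adjusted p = 0.0181) and Rps2 by 0.31 ± 0.09 (adjusted p = 0.0366). No 6-week array of these 4 genes lay below a 3-week array. Without Mo 6-week replicate 3 none of the 4 passed (changes of 0.60, 0.42, 0.41 and 0.25 for Mrpl51, Mrpl42, Rps12 and Rps2). Mrpl42, Rps12 and Rps2 did not pass without 3-week replicate 1 or 6-week replicate 2 either, and Rps2 without 3-week replicate 2 or 3, Mo naive replicate 2 or PMN naive replicate 1. Without Mo 6-week replicate 1, 20 mitochondrial and 4 cytosolic members passed, and without Mo 3-week replicate 3, 6 mitochondrial members did.

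In PMN at 6 weeks the families moved in both directions. The cytosolic family had 24 of 55 members higher and 8 lower, with a median change of 0.25 and a range from -1.01 to 1.09. The mitochondrial family had 25 of 77 higher and 9 lower, with a median of 0.13 and a range from -0.81 to 2.49. Over all genes 65.4% passed, 25.5% rising and 40.0% falling, and the median change was -0.18. Mitochondrial members thus rose at 32.5%, a share near that of all genes, and fell at 11.7%. Members with an Mrpl symbol had 19 of 48 higher and 5 lower, and those with an Mrps symbol 6 of 29 higher and 4 lower. After median centring, which moved the median of all genes by 0.19, the counts were 31 higher and 3 lower in the mitochondrial and 30 higher and 4 lower in the cytosolic family, beside 28.9% and 17.6% of all genes. After joint quantile normalization, which moved it by 0.11, they were 36 and 11 in the mitochondrial and 15 and 12 in the cytosolic family, beside 24.7% and 27.7% of all genes. Without PMN naive replicate 2, 30 cytosolic members rose and 7 fell, and without PMN 6-week replicate 1, 15 rose and 5 fell.

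**Figure D2:**
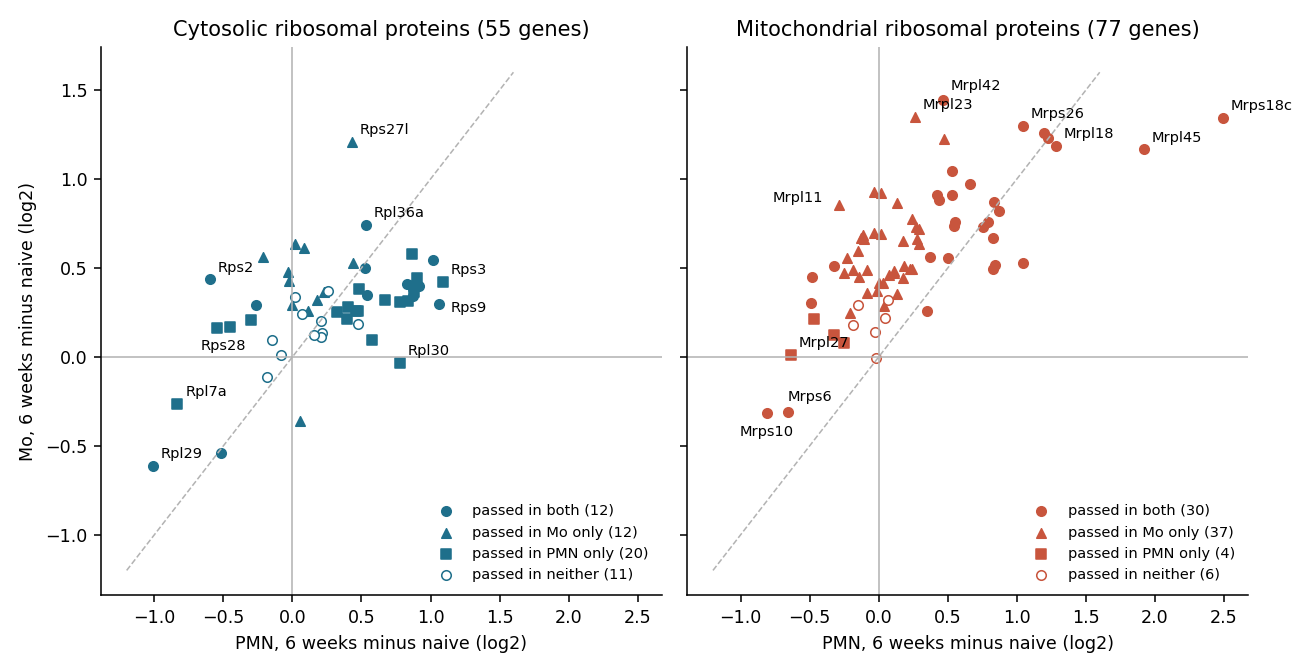
Change from naive to 6 weeks in Mo (vertical axis, log2) against that in PMN (horizontal axis, log2) for the 55 cytosolic members (left) and the 77 mitochondrial members (right), with symbols showing in which subset limma's adjusted p was below 0.05. The dashed line marks equal changes; most mitochondrial points lie above it, Mrps18c and Mrpl45 lie to its right, and the cytosolic points scatter around it.

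Mrps18c had the largest change of all members in any comparison. It read 7.10, 7.57, 7.0 and 7.17 in naive PMN, 7.40 and 7.31 at 3 weeks, and 9.75 and 9.65 at 6 weeks. The 6-week arrays were far above all others, and the 3-week arrays lay within the naive range. The change was 2.49 ± 0.21 (5.62-fold, adjusted p = 1.33e-07). Mrpl45 read 6.49, 6.80, 6.78 and 7.03 in naive PMN, 6.80 and 6.83 at 3 weeks, and 8.69 and 8.70 at 6 weeks. It showed the same step at 6 weeks, 1.92 ± 0.17 (3.78-fold, adjusted p = 2.27e-07). Mrpl18, which binds 5S rRNA in bacteria, went from 8.22, 8.36, 8.03 and 7.75 to 9.48 and 9.26 (1.28 ± 0.20, adjusted p = 4.85e-05). Mrpl20, an assembly protein of the bacterial large subunit, went from 6.39, 6.78, 6.51 and 6.37 to 7.95 and 7.52 (1.23 ± 0.22, adjusted p = 0.000244). In all 4 genes both 6-week arrays exceeded every naive array.

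The other 2 S18 paralogs did not pass in PMN. Mrps18a, which sits in the large subunit, changed by 0.29 ± 0.14 (adjusted p = 0.0684) and Mrps18b by 0.02 ± 0.12 (adjusted p = 0.898). In Mo all 3 rose: Mrps18a by 0.63 ± 0.13 (adjusted p = 0.00156), Mrps18b by 0.69 ± 0.12 (adjusted p = 0.000378) and Mrps18c by 1.34.

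Mrps10 and Mrps6 were also the mitochondrial members with the largest falls in PMN. Mrps10 read 6.68, 6.70, 6.79 and 6.83 in naive PMN and 5.85 and 6.03 at 6 weeks, and Mrps6 read 7.88, 7.82, 7.83 and 8.05 and then 7.23 and 7.24. Both were lower on each 6-week array than on any naive array, by 0.81 ± 0.12 (adjusted p = 3.74e-05) and 0.66 ± 0.13 (adjusted p = 0.000471) on the log2 scale, given as sizes of the fall. Mrpl27, whose bacterial counterpart reaches into the peptidyl transferase centre, changed by -0.63 ± 0.13 (adjusted p = 0.000497). Mrps11, near the platform of the small subunit, changed by -0.49 ± 0.12 (adjusted p = 0.00279), which did not pass after median centring (-0.30).

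Of the cytosolic members, Rps3, Rps9, Rpl8 and Rpl7 rose most in PMN. Rps3 and Rps9 lie near the entry of the messenger RNA channel. Rps3 read 8.60, 9.14, 8.32 and 8.27 in naive PMN and 9.78 and 9.57 at 6 weeks (1.09 ± 0.20, 2.13-fold, adjusted p = 0.000234). Rps9 read 10.07, 10.25, 10.16 and 9.77 and then 11.18 and 11.06 (1.06 ± 0.12, 2.09-fold, adjusted p = 1.97e-06). Rpl8, a core protein beside the peptidyl transferase centre, rose by 1.02 ± 0.23 (adjusted p = 0.00123) and Rpl7 by 0.92 ± 0.16 (adjusted p = 0.000132). In these 4 genes no naive array reached a 6-week array, and naive replicate 2 was the highest naive array in each. Both features of Rps9 rose, by 1.06 and 1.45, and the 4 features of Rpl7 by 0.84 to 1.06.

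Rpl29, Rpl7a, Rps2 and Rps28 fell most. Rpl29 read 11.31, 11.30, 11.59 and 11.48 in naive PMN, 11.46 and 11.71 at 3 weeks, and 10.38 and 10.44 at 6 weeks. The step came at 6 weeks on both arrays, by -1.01 ± 0.21 (0.497-fold, adjusted p = 0.000785). Rpl7a, a large-subunit protein, read 10.85, 10.94, 11.20 and 10.95 and then 10.10 and 10.21 at 6 weeks (-0.83 ± 0.13, adjusted p = 4.69e-05). Rps2, at the messenger RNA entry with Rps3 and Rps9, read 11.40, 11.26, 11.43 and 11.44 and then 10.85 and 10.72 (-0.60 ± 0.09, adjusted p = 5.06e-05). Rps28, near the exit of that channel, changed by -0.55 ± 0.12 (adjusted p = 0.000845). In none of the 4 did the naive and 6-week arrays overlap. The features of a gene did not always move together: the 3 features of Rps2 changed by -0.60 to 0.08 in PMN, while those of Rpl7a changed by -0.83 to -0.30 and the 7 of Rps28 by -0.69 to -0.43. Over the family, features of both signs were present in PMN for 6 of 36 cytosolic members with several features, and in Mo for 2 of 36.

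**Figure D3:**
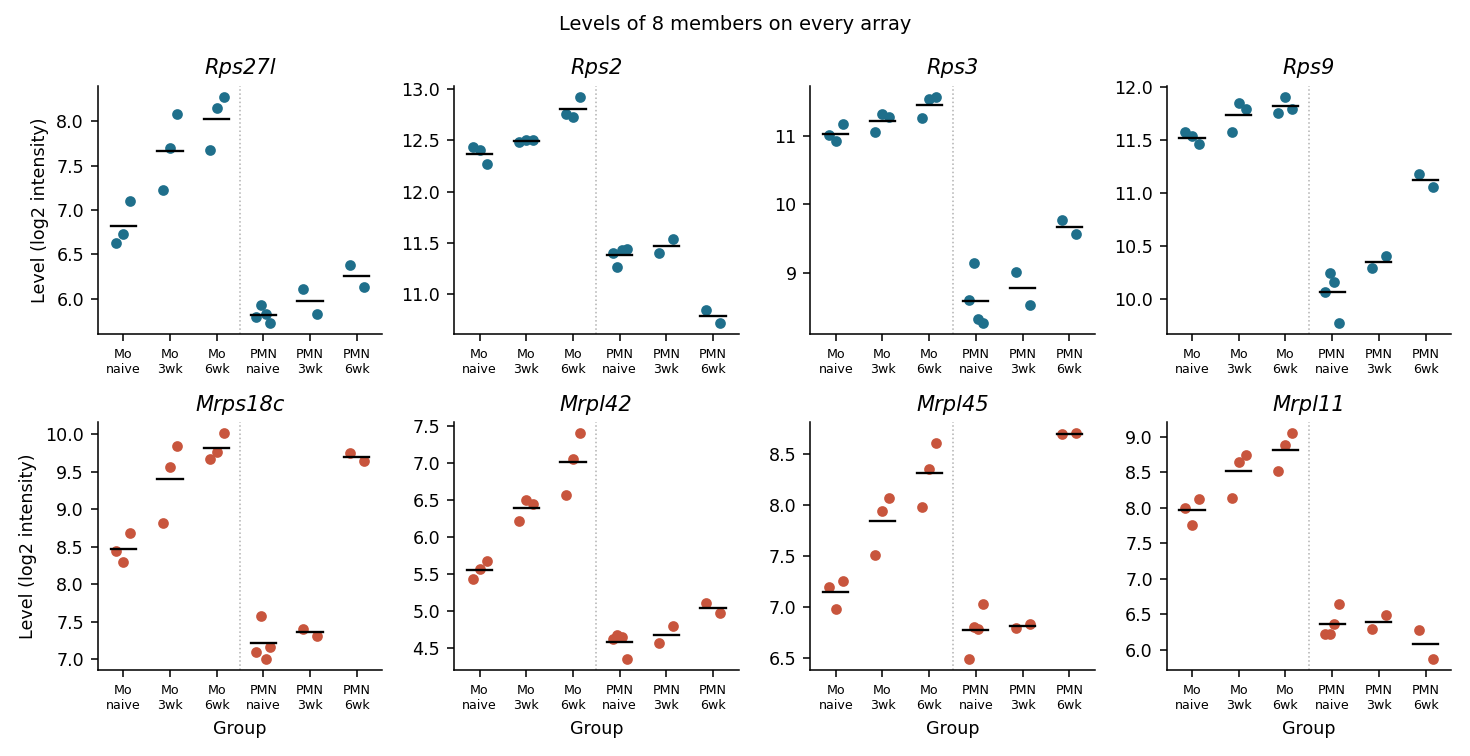
Level (log2 intensity, vertical axes with their own ranges) of 8 members on every array, by group; points are arrays and black lines group means, with cytosolic members in blue and mitochondrial members in orange. Mrps18c and Mrpl45 step up at 6 weeks in PMN and rise over both stages in Mo, Rps2 stands higher in Mo and lower in PMN at 6 weeks, and Mrpl11 rises in Mo, while its PMN groups overlap.

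At 3 weeks 0 of the 132 members passed in PMN, as did 0.0% of all genes in limma. An unadjusted p below 0.05 was found for 12 of 55 cytosolic members, 0 of 77 mitochondrial members and 374 of all genes. The count of members stayed at 0 under each alternative fit and with each library left out. The medians were 0.21 in the cytosolic and 0.04 in the mitochondrial family, against 0.01 over all genes. From 3 to 6 weeks in PMN, 11 cytosolic members rose and 8 fell, and 22 mitochondrial members rose and 8 fell, beside 23.7% and 34.9% of all genes (58.7% in either direction). Mrps18c rose by 2.34 ± 0.24 (adjusted p = 1.61e-06), Mrpl45 by 1.88 ± 0.20 (adjusted p = 1.88e-06), Rps3 by 0.90 ± 0.23 (adjusted p = 0.00388) and Rps25 by 0.85 ± 0.14 (adjusted p = 0.000161). Rpl29 fell by 1.17 and Rpl7a by 1.00, and in the mitochondrial family Mrpl27 fell by 0.71 and Mrps6 by 0.69. Without PMN 3-week replicate 2, the cytosolic count was 4 higher and 5 lower and Rps3 did not pass (0.66, adjusted p = 0.0622). Without PMN 6-week replicate 1, 7 cytosolic members were higher and 5 lower, and 12 mitochondrial members higher and 6 lower; without PMN 3-week replicate 1, 12 mitochondrial members were higher and 7 lower, and without 6-week replicate 2, 14 and 4.

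The group means of the 6-week comparisons in Mo and in PMN share no arrays, and their calls are set side by side here. The calls are not independent, since 1 fit gave both comparisons the same estimate of a gene's spread. All 25 mitochondrial members that rose in PMN also rose in Mo, which is 100.0% of the PMN risers and 38.5% of the Mo risers. Over all genes, 57.3% of the PMN risers and 67.0% of the Mo risers rose in both. These shares depend on how many genes of a set rose at all. In Mo 84.4% of the mitochondrial family, 38.2% of the cytosolic family and 21.8% of all genes rose, and in PMN 32.5%, 43.6% and 25.5%. Another 37 mitochondrial members rose in Mo without passing in PMN, which is 56.9% of the Mo risers against 29.6% over all genes, among them the subunit proteins Mrpl11, Mrpl23, Mrpl3 and Mrps15. Among cytosolic members 8 rose in both (Rpl6, Rpl7, Rpl8, Rpl24, Rpl36a, Rps9, Rps10 and Rps25), or 33.3% of the PMN risers and 38.1% of the Mo risers. Rpl29, Rpl39l, Mrps10 and Mrps6 fell in both, the fall of Rpl39l in PMN (-0.52) failing to pass after median centring (-0.33) or without either 6-week array. Members with opposite calls, higher in Mo and lower in PMN, were Rps2 and Rpl36 of the cytosolic and Mrpl34, Mrps11 and Mrps28 of the mitochondrial family. These are 9.52% and 4.62% of the Mo risers of each family, against 3.41% over all genes. Over all genes 77.2% of those that fell in Mo also fell in PMN, beside 2 of 3 cytosolic and 2 of 2 mitochondrial members. No member fell in Mo and rose in PMN, as did 2.67% of all genes that fell in Mo.

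The difference between the 6-week change in Mo and that in PMN was tested as an interaction in the same limma fit. In the mitochondrial family 24 of 77 members had a higher change in Mo and 2 a lower one, where 6.47% and 11.0% of all genes did (17.5% in either direction), and the median difference was 0.38 against 0.07 over all genes. After joint quantile normalization these medians were 0.24 and 0.10, and the members above the median of all genes went from 61 to 45 of 77. Of the cytosolic members 8 of 55 had a higher and 3 a lower change in Mo, with a median difference of -0.02. Mrpl11, at the base of the factor-binding stalk, changed by 0.85 in Mo and -0.29 in PMN, a difference of 1.14 ± 0.25 (adjusted p = 0.00504). Its 6-week arrays read 8.51, 8.88 and 9.04 in Mo, all above the naive 8.0, 7.76 and 8.12, and 6.28 and 5.87 in PMN, which overlapped the naive 6.21, 6.23, 6.36 and 6.65. Mrpl23 (1.09 ± 0.34, adjusted p = 0.0345) and Mrpl42 (0.98 ± 0.23, adjusted p = 0.00707) also rose more in Mo. The 2 members with the larger rise in PMN were Mrps18c (-1.15 ± 0.29, adjusted p = 0.0113) and Mrpl45 (-0.75 ± 0.24, adjusted p = 0.0376).

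In the cytosolic family the largest difference was that of Rps2, 1.03 ± 0.13 (adjusted p = 3.65e-05), whose 6-week arrays read 12.76, 12.73 and 12.92 in Mo, above the naive 12.43, 12.40 and 12.26. Rpl14 (0.78 ± 0.17, adjusted p = 0.00395) and Rps28 (0.71 ± 0.16, adjusted p = 0.00525), of the large and the small subunit, followed. Rpl30, a large-subunit protein, hardly differed in Mo (-0.04) and rose by 0.78 in PMN (difference -0.82 ± 0.21, adjusted p = 0.0136). Rps9 (-0.77 ± 0.16, adjusted p = 0.00366) and Rps25 (-0.53 ± 0.17, adjusted p = 0.0383), a small-subunit protein needed for initiation at viral internal entry sites, rose in both subsets and more in PMN. Rps25, Mrpl23 and Mrpl45 had the least secure calls, which most single arrays left out also ended: they did not pass after median centring (adjusted p = 0.104, 0.0984 and 0.103) or without either of the 6-week PMN arrays, and Rpl30 did not pass without the one or the other of these arrays (adjusted p = 0.0574 and 0.0537). Mrpl11 did not pass without PMN 6-week replicate 2 (0.93) and Mrps18c without replicate 1 (-1.10). The mitochondrial count was 10 without PMN 6-week replicate 1, 9 without replicate 2, 17 without Mo naive replicate 1 or 6-week replicate 3, and 11 after median centring. The cytosolic count was 5 and 7 without these PMN arrays, and 20 without PMN naive replicate 2.

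The families can be compared within each array by the difference of their medians, which cancels a shift common to all features of that array. Features differ in brightness, so the heights of the families are not compared, only how their difference changed. In Mo the cytosolic median was 11.17 ± 0.02, 11.36 ± 0.12 and 11.50 ± 0.10 (SD, n = 3) in naive, 3-week and 6-week cells, and the mitochondrial median 7.68 ± 0.09, 8.03 ± 0.21 and 8.30 ± 0.23. The difference of cytosolic minus mitochondrial narrowed, from 3.50, 3.58 and 3.39 on the naive arrays to 3.33, 3.25 and 3.03 at 6 weeks, with no overlap and a mean change of -0.29. After joint quantile normalization the change was -0.31. In PMN the cytosolic median was 9.35 ± 0.23 (n = 4) in naive, 9.71 ± 0.03 (n = 2) in 3-week and 9.85 ± 0.03 (n = 2) in 6-week cells, and the mitochondrial median 6.71 ± 0.03, 6.77 ± 0.06 and 6.87 ± 0.01. The difference read 2.52, 2.94, 2.65 and 2.45 in naive PMN, 3.00 and 2.88 at 3 weeks, and 2.95 and 3.00 at 6 weeks, a change of 0.34 at 6 weeks. That widening turned into a change of -0.22 after joint quantile normalization, so its direction depends on how the arrays are scaled. It is a change of median levels and not the median of the members' changes. The latter was 0.25 in the cytosolic and 0.13 in the mitochondrial family in PMN at 6 weeks, which lie closer together.

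**Figure D4:**
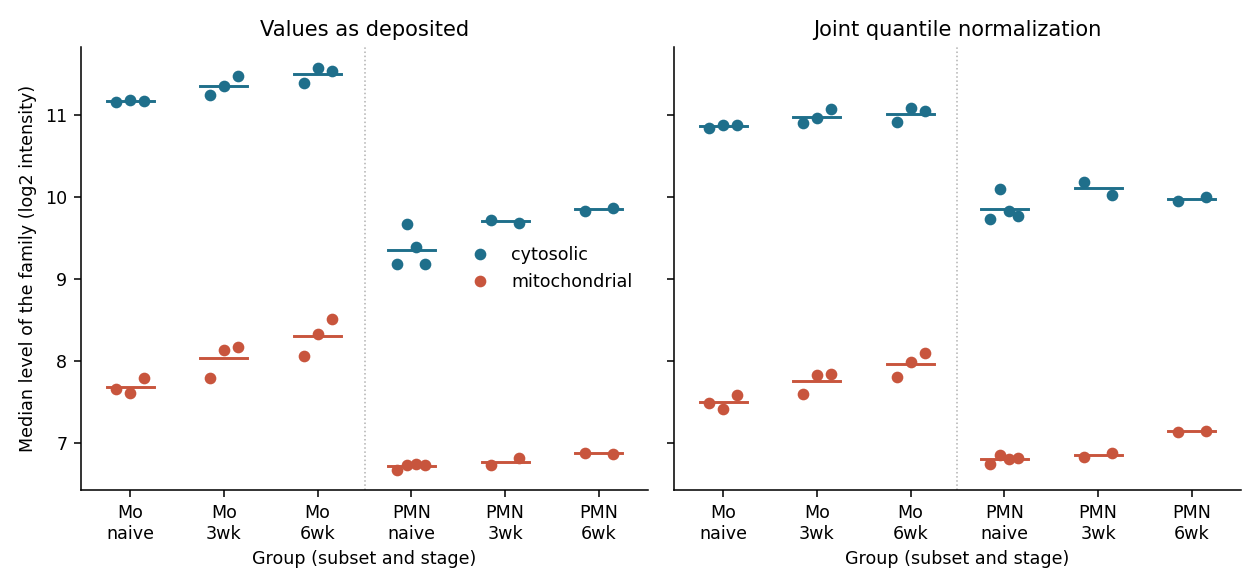
Median level (log2 intensity, vertical axis) of the 55 cytosolic (blue) and 77 mitochondrial (orange) members on every array, by group, as deposited (left) and after joint quantile normalization of the 17 arrays (right); lines are group means. In Mo both medians rise with stage in both panels. In PMN the mitochondrial median at 6 weeks stands at 6.87 as deposited and lies above all earlier PMN arrays in both panels.

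The brightest cytosolic members sit near the top of the scale. Rpl4, Rpl9, Rpl10, Rpl19, Rpl21, Rps2, Rps6, Rps7 and Rps18 had a mean level above the 99th percentile of all features (11.56), and 0 mitochondrial members did. Whether the smaller changes of the cytosolic family in Mo come with compression of bright signals was not tested. Without these 9 members, the change of the cytosolic minus the mitochondrial median at 6 weeks was -0.34 in Mo and 0.41 in PMN.

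Some members are described for what they are known for. Rps6, the substrate of the S6 kinases, read 12.68, 12.73 and 12.76 in naive and 12.84, 12.84 and 12.81 in 6-week Mo (0.11 ± 0.11, adjusted p = 0.394), and changed by 0.21 ± 0.11 in PMN (adjusted p = 0.12). Rps19 and Rps14, whose loss causes Diamond-Blackfan anaemia and takes part in the 5q- syndrome, respectively, were both measured: Rps19 rose in Mo (0.42 ± 0.15, adjusted p = 0.03), and Rps14 did not pass (0.24 ± 0.10, adjusted p = 0.0619). The rise of Rps19 was not called once the 17 arrays were quantile normalized together (0.21), nor when naive replicate 1 or 2 or 6-week replicate 2 or 3 was dropped. Rpl5, which binds Mdm2 as part of the 5S particle, changed by 0.18 ± 0.22 in Mo (adjusted p = 0.494) and by 0.47 ± 0.23 in PMN (adjusted p = 0.0851). Its naive PMN arrays ranged from 10.11 to 11.26, and without naive replicate 2 the change in PMN was 0.72 and passed. Rpl41, the smallest ribosomal protein, rose in Mo by 0.48 ± 0.12 (adjusted p = 0.0062), a rise that did not pass after joint quantile normalization (0.28).

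Rpl10, which completes the large subunit before it joins the small one, fell in PMN by 0.30 (SE 0.11, adjusted p = 0.0207), with 0.21 ± 0.10 in Mo (adjusted p = 0.0951). That fall did not pass after median centring (-0.11) or without PMN naive replicate 2 (-0.22) or 6-week replicate 1 (-0.21). Its testis paralog Rpl10l, near 6 on all arrays, changed by 0.39 ± 0.16 in PMN (adjusted p = 0.0381), a call that ended without any 1 of naive replicates 1, 3 and 4 and of the 6-week arrays. Rpl3l, the muscle paralog of Rpl3, lay between 5.75 and 6.22 on every array and passed in neither subset (-0.11 and -0.19). In the mitochondrial family Mrpl44, an RNase III relative, rose in both subsets, by 0.26 ± 0.10 (adjusted p = 0.0407) and 0.35 ± 0.10 (adjusted p = 0.00816). The rise in Mo ended when naive replicate 1 or 2 was dropped, or 6-week replicate 2 or 3, and that in PMN without 6-week replicate 1 (0.20). Mrpl41 rose by 0.82 ± 0.17 and 0.87 ± 0.18, although its other feature changed by 0.21 in Mo and -0.19 in PMN. Mrpl12, the stalk protein that binds translation factors, did not pass in Mo (0.29 ± 0.12, adjusted p = 0.0579) or in PMN (-0.15 ± 0.13). Mrps12, the counterpart of the bacterial streptomycin target, and Mrps36, since assigned to the 2-oxoglutarate dehydrogenase complex, passed in neither subset. Mrpl3, a core protein of the large subunit, rose in Mo by 0.66 ± 0.16 (adjusted p = 0.00418) and changed by 0.28 ± 0.17 in PMN (adjusted p = 0.147).

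Levels in Mo and PMN are a description, since the subsets seem to have been normalized apart. In naive cells 52 of 55 cytosolic members read higher in Mo, with a median difference of 1.46, and 70 of 77 mitochondrial members did, with a median of 0.84, against 13661 of 19938 genes and 0.20. After joint quantile normalization 49 cytosolic members (0.73) and 64 mitochondrial members (0.53) read higher in Mo, against 9101 genes and -0.05. The members farthest toward Mo were Rpl7 (2.54) and Mrps21 (2.12), and those toward PMN were Rpl29 (-0.30) and Mrpl27 (-0.50).

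Some ribosomal proteins have symbols outside the naming rule. Their counts stand beside 21.8% of all genes higher and 24.4% lower in Mo at 6 weeks, and 25.5% and 40.0% in PMN. Of 7 measured cytosolic ones, 4 rose in Mo at 6 weeks and 0 fell, among them Rpsa, a small-subunit protein first described as a laminin receptor (0.74 ± 0.13, adjusted p = 0.000405), and the stalk protein Rplp1 (0.60 ± 0.23, adjusted p = 0.0475). The call of Rplp1 ended after joint quantile normalization (0.36) and without most single arrays. In PMN 4 rose and 1 fell, the stalk protein Rplp2 (-0.65 ± 0.19, adjusted p = 0.00713), which did not pass after median centring (-0.46). Of 4 further mitochondrial ones, 3 rose in Mo and 2 rose in PMN, where 1 fell. Dap3, a GTP-binding small-subunit protein, rose by 0.98 ± 0.15 in Mo (adjusted p = 0.000192) and 0.83 ± 0.16 in PMN (adjusted p = 0.000446).

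Genes that build and serve the ribosomes were counted from lists. Over all genes 21.8% rose and 24.4% fell in Mo at 6 weeks (median -0.09), and 25.5% rose and 40.0% fell in PMN (median -0.18). Of 35 factors of cytosolic ribosome biogenesis, 28 rose and 0 fell in Mo (median 0.46), while 5 rose and 16 fell in PMN (median -0.22). The falls in PMN, 45.7% of the list, lay near the share of all genes. The difference between the subsets passed for 21 of the 35, all with the higher change in Mo, against 6.47% of all genes in that direction. Nop58, a core protein of box C/D particles, rose by 1.63 ± 0.22 in Mo (adjusted p = 5.72e-05). Cytosolic translation factors rose in both subsets, 23 of 32 in Mo and 27 of 32 in PMN with 1 lower in each, led by Eif5a (1.45 ± 0.19 in Mo, adjusted p = 2.93e-05, and 1.63 ± 0.20 in PMN, adjusted p = 4.46e-06). Of 28 genes of mitochondrial translation and ribosome assembly, 18 rose and 0 fell in Mo (median 0.44), and 7 rose and 2 fell in PMN (median 0.07). Among 20 regulators of ribosome production, 10 rose and 0 fell in Mo, with Myc, an activator of ribosome production, at 1.22 ± 0.18 (adjusted p = 0.000109). In PMN Myc changed by -0.44 ± 0.19 and did not pass, and its difference between the subsets was 1.67 ± 0.26 (adjusted p = 0.000336). Max lay at the other end of the list, with a difference of -1.15, and rose by 1.57 ± 0.15 in PMN (adjusted p = 2.87e-07). Of the 20 regulators, 2 had a higher and 2 a lower change in Mo by the interaction test, with a median difference of -0.07. Of the list 11 rose and 3 fell in PMN, where Gabpa, the ETS factor that binds the CCGGAAG core shown above, rose by 1.5 ± 0.16 (adjusted p = 1.09e-06).

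**Figure D5:**
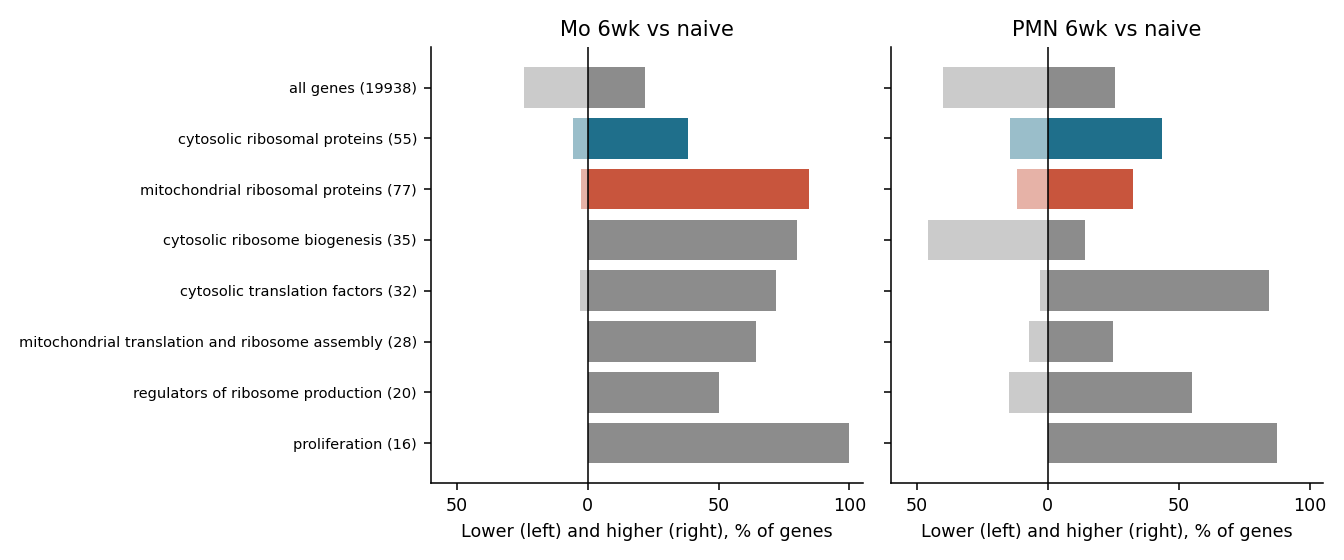
Share of genes (horizontal axis, percent) that were higher (right of 0) or lower (left of 0, lighter) at 6 weeks than in naive cells by limma's adjusted p below 0.05, in Mo (left panel) and PMN (right panel), for all genes, both families and 5 related lists with the number of genes in parentheses. Mitochondrial ribosomal proteins and cytosolic ribosome biogenesis factors extend far to the right in Mo and not in PMN, while translation factors and proliferation genes do so in both.

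Other programmes and cell types moved with stage in the same arrays. Over all genes 21.8% rose and 24.4% fell in Mo at 6 weeks, and 25.5% rose and 40.0% fell in PMN. Proliferation genes rose for 16 of 16 in Mo at 6 weeks and 14 of 16 in PMN, and their summed intensity went from 2919 to 4534 in naive Mo to 14062 to 26535 at 6 weeks, and from 2043 to 2113 in naive PMN to 7589 to 8918. In naive cells a marker of each sorted subset stood where the labels put it. The monocyte gene Ccr2 read 12.21 in naive Mo and 6.24 in naive PMN, and the neutrophil gene Cxcr2 read 5.59 and 12.55. Of 9 monocyte markers, 3 rose and 4 fell in Mo at 6 weeks, with the largest falls in Cx3cr1 (-1.64) and Csf1r (-0.67). Their summed intensity in Mo was 20889 to 23586 in naive and 21117 to 22557 in 6-week cells. In PMN 1 of the 9 rose and 3 fell. Granulocyte progenitor markers rose in Mo for 5 of 10, with a summed intensity from 992 to 1131 in naive and 5210 to 13301 in 6-week cells, and mature neutrophil markers for 8 of 11 with 1 lower, from 2360 to 2910 and 8938 to 18046. In PMN mature neutrophil markers rose for 9 of 11 with 1 lower, from 31446 to 36008 in naive and 65861 to 71232 in 6-week cells, and progenitor markers for 6 of 10 with 1 lower, from 968 to 1034 and 1589 to 1842. B cell markers fell in PMN for 7 of 7, with a summed intensity of 2594 to 2908 in naive, 2232 to 3125 in 3-week and 918 to 953 in 6-week cells, and in Mo for 6 of 7, from 881 to 1652 and then 596 to 815. T and NK cell markers fell in Mo for 7 of 9, with a summed intensity of 1203 to 1743 in naive and 777 to 806 in 6-week cells, and in PMN for 5 of 9 with 1 higher. Their sums in PMN overlapped, at 1112 to 1468 in naive and 1174 to 1252 in 6-week cells. Dendritic cell and macrophage markers fell in Mo for 6 of 11 with 1 higher, from 2632 to 2798 and then 1787 to 2347, and in PMN for 5 of 11. In PMN that is 45.5%, near the 40.0% of all genes that fell. The sums in PMN overlapped, at 1939 to 3095 in naive and 2298 to 2322 in 6-week cells. The part that these cells and dividing cells played in the changes of the ribosomal proteins was not tested.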

How the data were processed

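Total RNA of the sorted cells was labelled and hybridised to Affymetrix Mouse Gene 1.0 ST arrays, per the labels' protocols. The deposited table holds intensities on a linear scale that the authors made with RMA, per the submitters' processing notes, which give no version; values run from 9.76 to 32095 and were put on the log2 scale. Of 35557 features, 21789 carried 1 gene symbol, 1621 several and 12147 none. The Entrez number of 21698 was found in RefSeq (GRCm38.p6). The median number of intensity values that arrays shared was 942.5 for 2 Mo arrays, 251 for 2 PMN arrays and 146 across subsets, so the subsets were treated as normalized apart. The fit (lmFit, contrasts.fit and eBayes of limma 3.58.1, two-sided, under R 4.3.3) used all 17 arrays without a filter and was tested on simulated data. All p-values in the text are limma's, adjusted by Benjamini-Hochberg over 19938 genes. The number of arrays, 2 to 4 a group, limits the precision.

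Members, gene lists and comparisons were chosen with earlier results of these data known. The members named are the 4 largest rises and falls per family at 6 weeks and the 2 largest elsewhere. Added to them are the 3 largest differences between subsets and members listed for their known roles. The rule also picked the 2 largest changes of each list in each subset, of which only some are named. Ccr2 and Cxcr2, named as markers of the sorted subsets, fall outside this rule. Members named in passing next to the members picked by the rule, such as Mrpl16 or Mrps15, were chosen after their values were seen. Motifs were chosen in the same way. Alternatives were median centring, joint quantile normalization, leaving out dim genes, a floor, the mean of features, separate fits, array weights, another prior, the replicate number as a block and leaving out each array.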

Additional observations from a re-analysis of the deposited data

Results flagged for a closer look

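By limma's interaction test, the 6-week change differed between Mo and PMN for 11 of 55 cytosolic and 26 of 77 mitochondrial members. Over all genes 17.5% passed that test. Given here are the members with the largest differences each way among those that passed, so their passing is no separate result. The change in Mo minus that in PMN was 1.03 for Rps2, 0.78 for Rpl14, 0.71 for Rps28, -0.82 for Rpl30, -0.77 for Rps9 and -0.53 for Rps25 in the cytosolic family. It was 1.14 for Mrpl11, 1.09 for Mrpl23, 0.98 for Mrpl42, -1.15 for Mrps18c and -0.75 for Mrpl45 in the mitochondrial family. A single array lay far from the others of its group for 2 members: Mrpl42 read 4.35 on naive PMN replicate 4 against 4.63 to 4.67 on the others, and Rpl12 read 6.56 on naive PMN replicate 1 against 6.28 to 6.30. These were 2 of 50 groups tested, and chance gives such a gap in about 1 group in 20.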

How the results depend on the processing

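Of 148 results for named genes, 87 kept their direction and their side of the threshold under every alternative run. Array weights, whose estimate did not converge, gave 44, 46, 14 and 24 cytosolic members at 3 weeks, at 6 weeks, between them (all in Mo) and for the difference between subsets, and 69, 34 and 48 mitochondrial members at 3 weeks, between 3 and 6 weeks and for the difference. Fitting Mo alone gave 0 members of either family at 3 weeks, and 0 cytosolic and 1 mitochondrial member between 3 and 6 weeks. A floor gave 0 cytosolic and 2 mitochondrial members at 3 weeks, and leaving out dim genes gave 4 mitochondrial members between 3 and 6 weeks. Median centring gave 37 cytosolic members at 6 weeks in Mo, 1 mitochondrial member between 3 and 6 weeks and 11 for the difference. Joint quantile normalization gave 10 mitochondrial members at 3 weeks, 10 cytosolic members at 6 weeks and 1 between them. Except where construction shows it (fewer arrays or genes), the cause was not tested.

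Between naive and 6 weeks the family medians changed, in the deposited values, by 0.33 (cytosolic) and 0.62 (mitochondrial) in Mo and 0.49 and 0.16 in PMN. These are changes of the median level on an array, and not medians of the members' changes. After median centring the changes were 0.51 and 0.80 in Mo and 0.35 for the mitochondrial median in PMN. After joint quantile normalization they were 0.15 for the cytosolic median in Mo and 0.12 and 0.34 in PMN, where the cytosolic minus mitochondrial difference reversed to -0.22.

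With each array left out in turn, cytosolic counts ranged from 0 to 13 (Mo at 3 weeks), 10 to 33 (6 weeks), 0 to 4 (6 against 3 weeks), 20 to 37 (PMN at 6 weeks), 9 to 23 (6 against 3 weeks) and 5 to 20 (difference). Mitochondrial counts ranged from 0 to 56, 45 to 70, 0 to 20, 23 to 36, 18 to 33 and 9 to 32 in the same order. Changes of medians ranged from 0.29 to 0.39 and 0.51 to 0.74 in Mo, and 0.44 to 0.60 and 0.14 to 0.17 in PMN, and those of the difference from -0.35 to -0.20 and 0.27 to 0.44.

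Changes that turned direction had not passed the test. After joint quantile normalization these were Rpl3l (0.107), Rpl10 (-0.032), Rpl5 (-0.0128) and Rps6 (-0.136) in Mo, and Rpl3l (0.0259), Mrps18b (-0.0239), Mrps36 (0.0261), Mrps12 (0.193) and Rps14 (-0.329, which then passed) in PMN. After median centring these were Rpl3l in Mo (0.0716), and Rpl3l (0.0082), Rps19 (0.167), Rpl41 (0.165), Mrpl12 (0.0438), Mrps36 (0.0085) and Mrps12 (0.17) in PMN. With each array left out, the change in PMN ranged from -0.0977 to 0.0405 for Rps19, -0.0868 to 0.0202 for Rpl41, -0.0024 to 0.0616 for Mrps18b and -0.0974 to 0.0507 for Mrps12.

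With the replicate number as a block, 5 cytosolic and 51 mitochondrial members passed at 3 weeks in Mo and 13 mitochondrial members between 3 and 6 weeks, and Rps14 changed by -0.0155 in PMN. Deviations of same-numbered arrays in Mo correlated at -0.09 to 0.63 (9 pairs), against -0.71 to 0.52 for differently numbered arrays (18 pairs). The range of same-numbered Mo arrays thus lay higher at both ends. In PMN the ranges were -0.46 to 0.02 and -0.34 to 0.46. Deviations of the PMN arrays at 3 weeks, and of those at 6 weeks, mirror each other by construction, so the PMN values cannot decide on pairing. Whether the numbers mark pairs was not tested, and the main fit did not use them.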
